A study of Rattus norvegicus with 18 samples.

Results

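This report describes the type I interferon response genes of rat knee synovium, a list of 37 genes chosen by name and looked up among the array's gene probes by symbol or current synonym. Of the 37 genes, 35 had a probe and 33 passed the filter on dim probes, among 23606 genes or transcripts tested in all. Oas2 and Xaf1 had no probe under these names, Ifit1 reached the scanner's well-above-background mark on 0 of 18 arrays, and Oasl did not meet the filter. The arrays held knee synovial RNA of male Lewis rats aged 6 to 8 weeks, in 6 groups of 3 arrays: normal control, adjuvant-induced arthritis (AIA), AIA in a cold model, the cold model given WTD, AIA in a hot model, and the hot model given WTD. WTD is a Chinese herbal formula, and the study compared models with each other, with controls and with WTD treatment. How the cold and hot states were induced and how WTD was dosed are not given in the sources used here. Titles of WTD arrays include a letter of unexplained meaning: G, Z and Z on AIA-cold-WTD replicates 1 to 3, and D, G and Z on AIA-hot-WTD replicates 1 to 3.

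Type I interferons, the alpha and beta forms, signal through the receptor chains Ifnar1 and Ifnar2 and the kinases Jak1 and Tyk2, and a complex that contains Stat2 and Irf9 then binds the interferon-stimulated response element (ISRE) in promoters. The genes it switches on encode sensors of foreign nucleic acid, antiviral effectors, the ubiquitin-like modifier Isg15 with its enzymes, and parts of antigen processing. Some members, such as Irf1 and the antigen processing genes, also answer type II interferon, through the gamma-activated site (GAS) in promoters. In inflamed synovium of human arthritis this set is known as an interferon signature that varies between patients.

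Promoters are shown because the members were high together on the same arrays. They were listed by name as interferon response genes, not on sequence. The share of them with an ISRE is therefore no finding about these arrays. The RefSeq promoter table (build GRCr8) held 28 of the 37 members, each with 250 bases before and 50 after the gene's start. Mx2, Isg15, Ifit1, Ifit2, Oas2, Usp18, Ddx58, Dhx58 and Zbp1 had no entry under their symbol or gene number. The ISRE was searched on both strands as GAAA followed, after any 2 bases, by GAAA again, and the GAS as TTCNNNGAA, which is its own reverse complement. The ISRE letters were found in 16 of the 28 member promoters (57.1%) and in 3.92% of all 33469 promoters of that length. The GAS letters were found in 6 of 28 (21.4%) and in 8.87% of all promoters. In Bst2 both motifs share bases, and in Oas1a and Bst2 there are 2 ISRE matches that overlap each other. Each stretch below has 80 bases, reads 5′ to 3′ on the gene's strand, lies before the start, and has the match in capitals; it is the ISRE in all but Irf1, where it is the GAS.
Irf7, chr1:205800048-205800127 (- strand): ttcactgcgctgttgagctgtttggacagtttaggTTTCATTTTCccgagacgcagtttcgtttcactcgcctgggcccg
Oas1a, chr12:41330386-41330465 (+ strand): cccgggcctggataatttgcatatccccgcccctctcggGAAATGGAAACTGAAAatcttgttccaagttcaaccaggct
Bst2, chr16:18255054-18255133 (- strand): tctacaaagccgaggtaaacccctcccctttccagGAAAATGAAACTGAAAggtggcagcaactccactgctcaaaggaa
Ifit3, chr1:241527246-241527325 (+ strand): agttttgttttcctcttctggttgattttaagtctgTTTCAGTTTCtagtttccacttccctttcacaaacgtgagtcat
Rsad2, chr6:48788223-48788302 (- strand): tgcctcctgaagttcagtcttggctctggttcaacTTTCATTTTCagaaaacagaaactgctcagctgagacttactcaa
Ifi44, chr2:243303841-243303920 (- strand): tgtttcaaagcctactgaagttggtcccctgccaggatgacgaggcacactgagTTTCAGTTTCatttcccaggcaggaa
Gbp2, chr2:234005647-234005726 (+ strand): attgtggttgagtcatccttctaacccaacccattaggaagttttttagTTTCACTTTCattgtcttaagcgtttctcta
Lgals3bp, chr10:104127854-104127933 (- strand): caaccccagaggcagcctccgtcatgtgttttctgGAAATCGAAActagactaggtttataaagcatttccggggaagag
Tap1, chr20:4668620-4668699 (- strand): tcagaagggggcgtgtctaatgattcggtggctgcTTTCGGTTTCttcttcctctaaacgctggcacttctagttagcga
Irf1, chr10:38417757-38417836 (+ strand): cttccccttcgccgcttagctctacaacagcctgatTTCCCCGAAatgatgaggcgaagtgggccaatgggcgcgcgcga
The capitals lie between bases -147 and -138 in Rsad2, -142 and -134 in Irf1, -121 and -112 in Tap1, -69 and -60 in Irf7, -44 and -35 in Ifit3, and -26 and -17 in Ifi44, counted back from the start. Members also share neighbourhoods: the Tap1 and Psmb9 promoters, on opposite strands of chromosome 20, overlap by 44 bases, and Psmb8 and Tap2 lie beside them. The Rsad2 and Cmpk2 promoters, on opposite strands of chromosome 6, are likewise neighbours. A match is a run of letters, not a shown binding site. Equally, no match means only that these letters were absent from the 300 bases searched. On AIA-hot replicate 2, described below, the 15 tested members with an ISRE lay above the control mean by a median of 1.55. The median was 1.38 for the 11 without one, and 2.42 for the 7 with no promoter entry. Those 11 were Mx1 (3.40), Irf1, Irf9, Stat2, Cmpk2, Herc6, Parp9, Trim25, Psmb9, Ifi35 and Ube2l6. Whether the motif goes with the level was not tested.

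Levels are log2 signals relative to the array's 75th percentile, so they can be compared between arrays for 1 gene but not between genes. The 75th percentile of the signal was 72.8 units on control replicate 1 and 216 to 354 on the other 17 arrays, and 44.0% of that array's gene probes were well above background against 57.1% to 77.0% elsewhere. Markers of synovial fibroblasts (11 of 11 tested) and macrophages (11 of 12) had means of 2.44 to 3.67 and 2.18 to 3.99 over the 18 arrays. Among them Prg4, which encodes lubricin, and Cd68 were well above background on all 18 arrays. Control replicate 1 also had the highest cartilage mean (5.86, against -1.65 to 1.88 on the others) and the lowest macrophage mean (2.18). For comparisons that use that array or AIA-hot replicate 2, described next, the median over members is also given without it. In bulk tissue, fewer cells of a type and less RNA per cell cannot be told apart.

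The interferon genes were high together on single arrays of the hot groups, and AIA-hot replicate 2 stood far above all other arrays. It was the highest of the 18 arrays for 29 of the 33 members, against 5.74% of all genes. The 4 exceptions were Tap2, highest on AIA-hot replicate 1, Irf1 and Psmb9, highest on AIA-hot-WTD replicate 1, and Rsad2, highest on AIA-hot-WTD replicate 3. AIA-hot-WTD replicate 1 came second for 28 of the 33 members, against 3.46% of the genes with a value on every array. The mean over the 33 members was 0.34, 0.40 and 0.59 on the control arrays and 1.05, 0.80 and 0.53 on the AIA arrays. It was 0.56, 2.22 and 1.08 on the AIA-hot arrays and 1.56, 0.32 and 0.99 on the AIA-hot-WTD arrays. In the cold model it was 0.32, 0.60 and 0.31 on the AIA-cold arrays and 0.52, 0.55 and 0.60 with WTD. The cold groups thus lay within or next to the control range, while the hot groups reached from the control range to far above it. Relative to the mean of the controls, the median member was higher by 0.17 on AIA-hot replicate 1, by 1.63 on replicate 2 and by 0.42 on replicate 3.

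**Figure D1:**
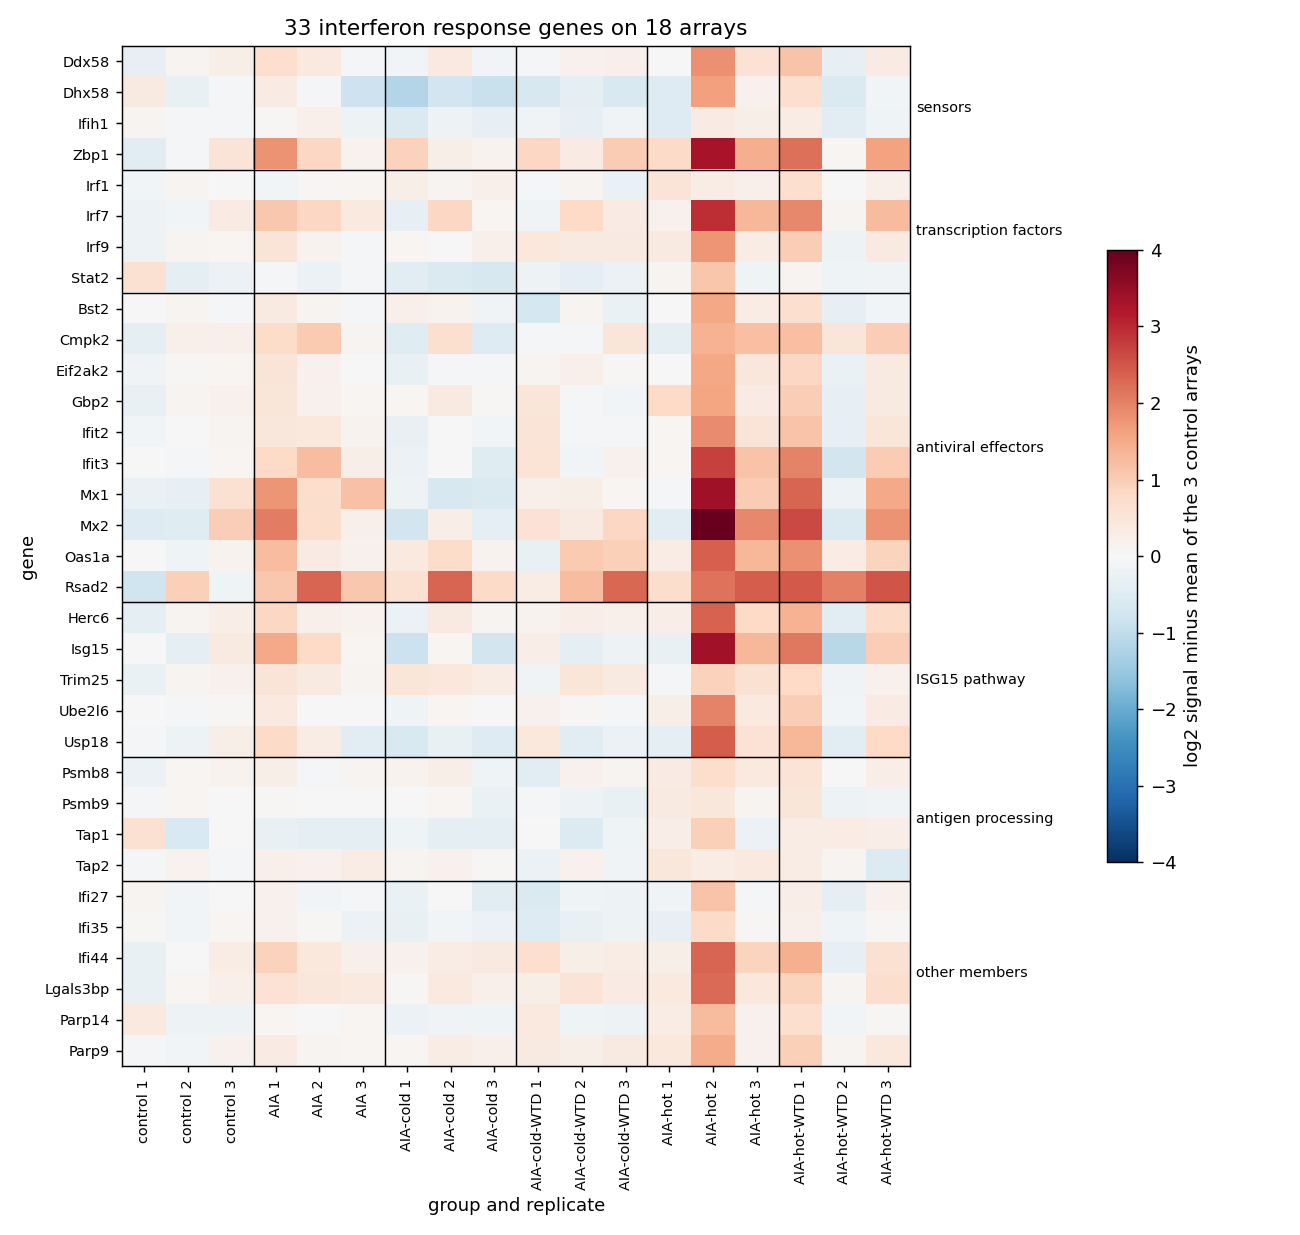
Heat map of the 33 measured members (rows, grouped by role) on 18 arrays (columns, 3 per group). Colour is the log2 signal minus the mean of the 3 control arrays. The column of AIA-hot replicate 2 is the darkest, followed by AIA-hot-WTD replicate 1, while AIA-hot replicate 1 and AIA-hot-WTD replicate 2 are closer to the controls. On AIA-hot replicate 1, 12 members lie above all controls, and on AIA-hot-WTD replicate 2, 17 lie below them.

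All 33 members lay above all 3 control arrays on AIA-hot replicate 2, where 20.9% of all genes did. The count was 31 on AIA-hot-WTD replicate 1, where 20.7% of all genes did, 27 on AIA-hot replicate 3 (21.2%), 26 on AIA replicate 1 (23.7%) and 24 on AIA-hot-WTD replicate 3 (19%). It was 12 on AIA-hot replicate 1 (18.7%), 8 on AIA replicate 3 (17.4%) and 3 on AIA-hot-WTD replicate 2 (17.2%), where 17 members lay below all controls (22.3% of all genes). On AIA-cold replicates 1 to 3 the counts were 6, 17 and 5, where 23.6%, 23.1% and 22.1% of all genes lay above. On the same 3 arrays 15, 5 and 13 members lay below all controls, where 29.0%, 28.5% and 24.4% of all genes did. The count above the controls was 19 on AIA replicate 2 (19.4%) and 12, 12 and 11 on AIA-cold-WTD replicates 1 to 3, where 25.6%, 23.9% and 22.7% of all genes lay above. It ranged from 3 to 31 within AIA-hot-WTD and from 12 to 33 within AIA-hot.

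The spread within the groups showed the same. In AIA-hot the highest and lowest array were over 1 log2 unit apart for 27 of the 33 members, against 18% of all genes. In AIA-hot-WTD this held for 17 members (11.1% of all genes) and in AIA for 8 (11.2%). It held for 4 members in AIA-cold (8.44%), 4 in control (33.1%) and 2 in AIA-cold-WTD (17.8%). The median SD of a member over 3 arrays was 0.93 in AIA-hot, where the median gene had 0.23, and 0.54 in AIA-hot-WTD, where the median gene had 0.20. It was 0.24 in control, where the median gene had 0.36, and 0.18 in AIA-cold, where it had 0.16.

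**Figure D2:**
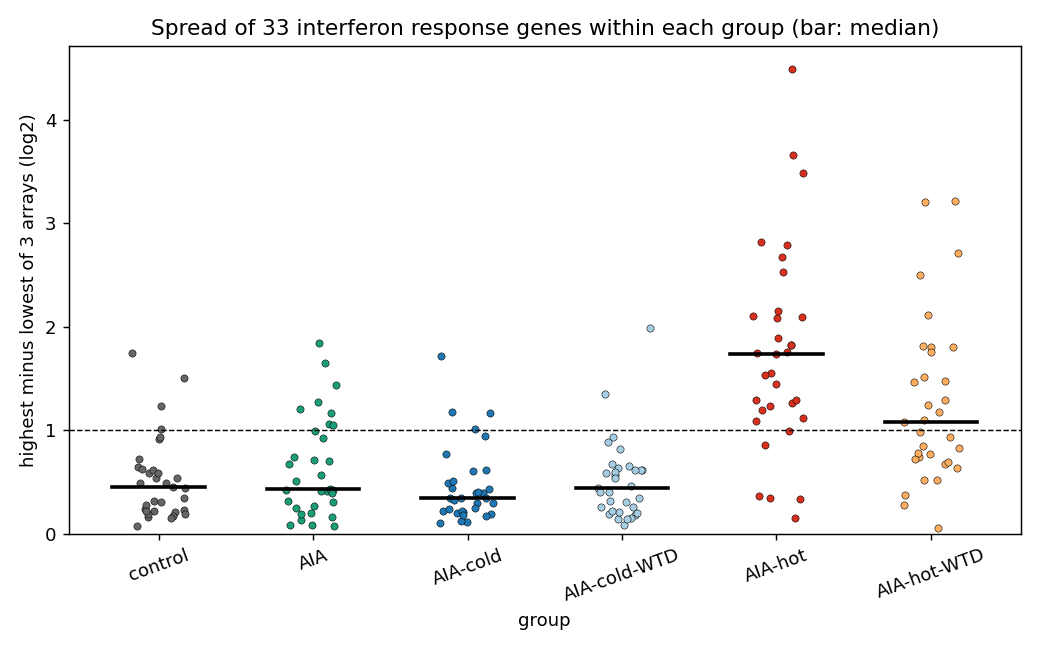
Difference between the highest and lowest of the 3 arrays of a group (log2, vertical axis) for each of 33 members (points) in 6 groups, with the median as a bar and a dashed line at 1. In AIA-hot 27 points lie above the line and in AIA-hot-WTD 17, against 2 to 8 in the other groups.

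Among the nucleic acid sensors, Zbp1, which recognises left-handed double helices and can start cell death, varied most. Zbp1 stood at -3.73, -3.37 and -2.79 in control, -1.50, -2.48 and -3.15 in AIA, -2.39, -3.06 and -3.16 in AIA-cold and -2.47, -2.96 and -2.28 in AIA-cold-WTD. Its levels were -2.52, 0.009 and -1.85 in AIA-hot and -1.10, -3.22 and -1.67 in AIA-hot-WTD. All 3 AIA-hot arrays lay above all controls, with replicate 2 far ahead, while in AIA-hot-WTD replicate 2 lay among the controls. The probe was well above background on 2 of 3 control and 2 of 3 AIA arrays. Dhx58 (LGP2), a helicase that tunes RIG-I signalling, was at -1.24, -1.89 and -1.64 in control, -1.27, -1.63 and -2.43 in AIA, -2.76, -2.36 and -2.49 in AIA-cold and -2.23, -1.98 and -2.19 in AIA-cold-WTD. It was at -2.11, 0.039 and -1.42 in AIA-hot and -0.92, -2.17 and -1.70 in AIA-hot-WTD. The AIA-cold and AIA-cold-WTD arrays all lay below the controls, and only AIA-hot replicate 2 and AIA-hot-WTD replicate 1 lay above them. Ifih1 (MDA5), a sensor of long double-stranded RNA, was flat by comparison. It was at -1.45, -1.64 and -1.63 in control, -1.53, -1.37 and -1.78 in AIA, -2.16, -1.77 and -1.91 in AIA-cold and -1.73, -1.91 and -1.71 in AIA-cold-WTD. In AIA-hot it was at -2.09, -1.23 and -1.33 and in AIA-hot-WTD at -1.28, -2.02 and -1.75. The AIA-hot arrays lay on both sides of the controls. Ddx58 (RIG-I), the sensor of uncapped viral RNA, was highest on AIA-hot replicate 2 too, at 1.93 against -0.21 to 0.33 in control.

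Of the transcription factors, Irf7, which drives the interferon alpha genes in a second wave, had the widest range. Irf7 was at 2.57, 2.67 and 3.11 in control, 3.85, 3.61 and 3.18 in AIA, 2.46, 3.62 and 2.87 in AIA-cold and 2.64, 3.57 and 3.12 in AIA-cold-WTD. It reached 2.95, 5.74 and 4.11 in AIA-hot and 4.71, 2.90 and 4.03 in AIA-hot-WTD. All AIA arrays lay above all controls, and the AIA-hot arrays overlapped them through replicate 1. Stat2, which acts with Irf9 in the complex that binds the ISRE, was at -1.29, -2.30 and -2.14 in control, -1.99, -2.13 and -1.97 in AIA, -2.35, -2.50 and -2.54 in AIA-cold and -2.12, -2.31 and -2.13 in AIA-cold-WTD. The level was -1.80, -0.79 and -2.08 in AIA-hot and -1.79, -2.07 and -2.05 in AIA-hot-WTD. The AIA-cold arrays were all below the AIA-hot arrays, and control replicate 1 lay far above the other controls. Irf1, an early factor that also answers interferon gamma, was at -1.57, -1.35 and -1.44 in control, -1.58, -1.40 and -1.38 in AIA, -1.22, -1.33 and -1.25 in AIA-cold and -1.54, -1.36 and -1.70 in AIA-cold-WTD. It was at -0.93, -1.16 and -1.26 in AIA-hot and -0.77, -1.44 and -1.26 in AIA-hot-WTD. Its AIA-hot arrays were all above the controls, with replicate 1 and not replicate 2 on top. Irf9 was between -0.24 and 0.08 in control and at 1.72 on AIA-hot replicate 2.

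Among the antiviral effectors, Mx1 and Mx2 ranged widest over the 18 arrays. The dynamin-like GTPase gene Mx1 was at -3.44, -3.47 and -2.56 in control, -1.38, -2.44 and -1.99 in AIA, -3.36, -3.80 and -3.73 in AIA-cold and -2.96, -2.91 and -3.09 in AIA-cold-WTD. In AIA-hot it was at -3.24, 0.25 and -2.15 and in AIA-hot-WTD at -0.84, -3.35 and -1.64. All AIA arrays lay above the controls and all AIA-cold arrays below the AIA and AIA-hot arrays. Its relative Mx2 was at -3.76, -3.74 and -2.25 in control, -1.21, -2.55 and -3.06 in AIA, -3.98, -2.97 and -3.63 in AIA-cold and -2.66, -2.89 and -2.43 in AIA-cold-WTD. Mx2 reached -3.67, 0.82 and -1.33 in AIA-hot and -0.62, -3.83 and -1.46 in AIA-hot-WTD. The AIA-hot values spanned 4.49 log2 units, and the probe was well above background on 13 arrays, among them 1 of 3 controls and 2 of 3 AIA-hot arrays. Ifit3, a member of a family that binds viral RNA, was at -3.05, -3.10 and -2.94 in control, -2.24, -1.79 and -2.78 in AIA, -3.27, -3.01 and -3.50 in AIA-cold and -2.48, -3.13 and -2.84 in AIA-cold-WTD. It was at -2.96, -0.28 and -1.88 in AIA-hot and -1.04, -3.75 and -2.01 in AIA-hot-WTD. The 3 AIA arrays and AIA-hot replicates 2 and 3 were above all controls, and AIA-hot replicate 1 was among them. Oas1a, an oligoadenylate synthase that activates RNA decay, was at 3.04, 2.86 and 3.17 in control, 4.26, 3.35 and 3.20 in AIA, 3.42, 3.76 and 3.15 in AIA-cold and 2.73, 4.08 and 3.99 in AIA-cold-WTD. Its AIA-hot levels were 3.31, 5.42 and 4.34 and its AIA-hot-WTD levels 4.84, 3.33 and 3.91. Every AIA, AIA-hot and AIA-hot-WTD array lay above all controls.

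Rsad2 (viperin), which makes a chain-terminating nucleotide, did not follow the other effectors closely. Its genomic neighbour Cmpk2, a mitochondrial nucleotide kinase, followed them in part. Rsad2 was at -0.91, 0.84 and -0.31 in control, 0.94, 2.21 and 0.94 in AIA, 0.47, 2.19 and 0.64 in AIA-cold and 0.18, 1.11 and 2.17 in AIA-cold-WTD. It was at 0.57, 2.04 and 2.30 in AIA-hot and 2.33, 1.87 and 2.39 in AIA-hot-WTD. All AIA and AIA-hot-WTD arrays were above the controls, AIA-hot replicate 2 did not stand out, and AIA-hot-WTD replicate 2 was high although most members were low there. The second Rsad2 probe was dimmer and well above background on 11 arrays, and its highest array was AIA replicate 1, at -2.10. On build rn4 the probe used lies at chr6:44101104-44101163, and the ends listed for the second one are chr6:44103436-44106579. Cmpk2 was at -2.75, -2.15 and -2.14 in control, -1.62, -1.30 and -2.23 in AIA, -2.82, -1.69 and -2.87 in AIA-cold and -2.42, -2.38 and -1.85 in AIA-cold-WTD. Cmpk2 levels were -2.72, -0.97 and -1.14 in AIA-hot and -1.14, -1.86 and -1.35 in AIA-hot-WTD. Its highest arrays were AIA-hot replicate 2 and then AIA-hot-WTD replicate 1, as for most members. But its AIA-hot replicates 2 and 3 were almost level, unlike those of Mx1 or Mx2. Bst2 (tetherin), which holds budding virus at the cell surface, was at 2.61, 2.73 and 2.56 in control, 3.01, 2.74 and 2.58 in AIA, 2.85, 2.76 and 2.51 in AIA-cold and 1.94, 2.76 and 2.36 in AIA-cold-WTD. It was at 2.66, 4.19 and 2.94 in AIA-hot and 3.30, 2.32 and 2.54 in AIA-hot-WTD. Apart from AIA-hot replicate 2 and AIA-hot-WTD replicate 1, Bst2 was between 1.94 and 3.01 on every array. Gbp2, a guanylate-binding GTPase, Ifit2 and Eif2ak2 (PKR), which halts translation, were each highest on AIA-hot replicate 2, at 5.23, 2.60 and 2.12.

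**Figure D3:**
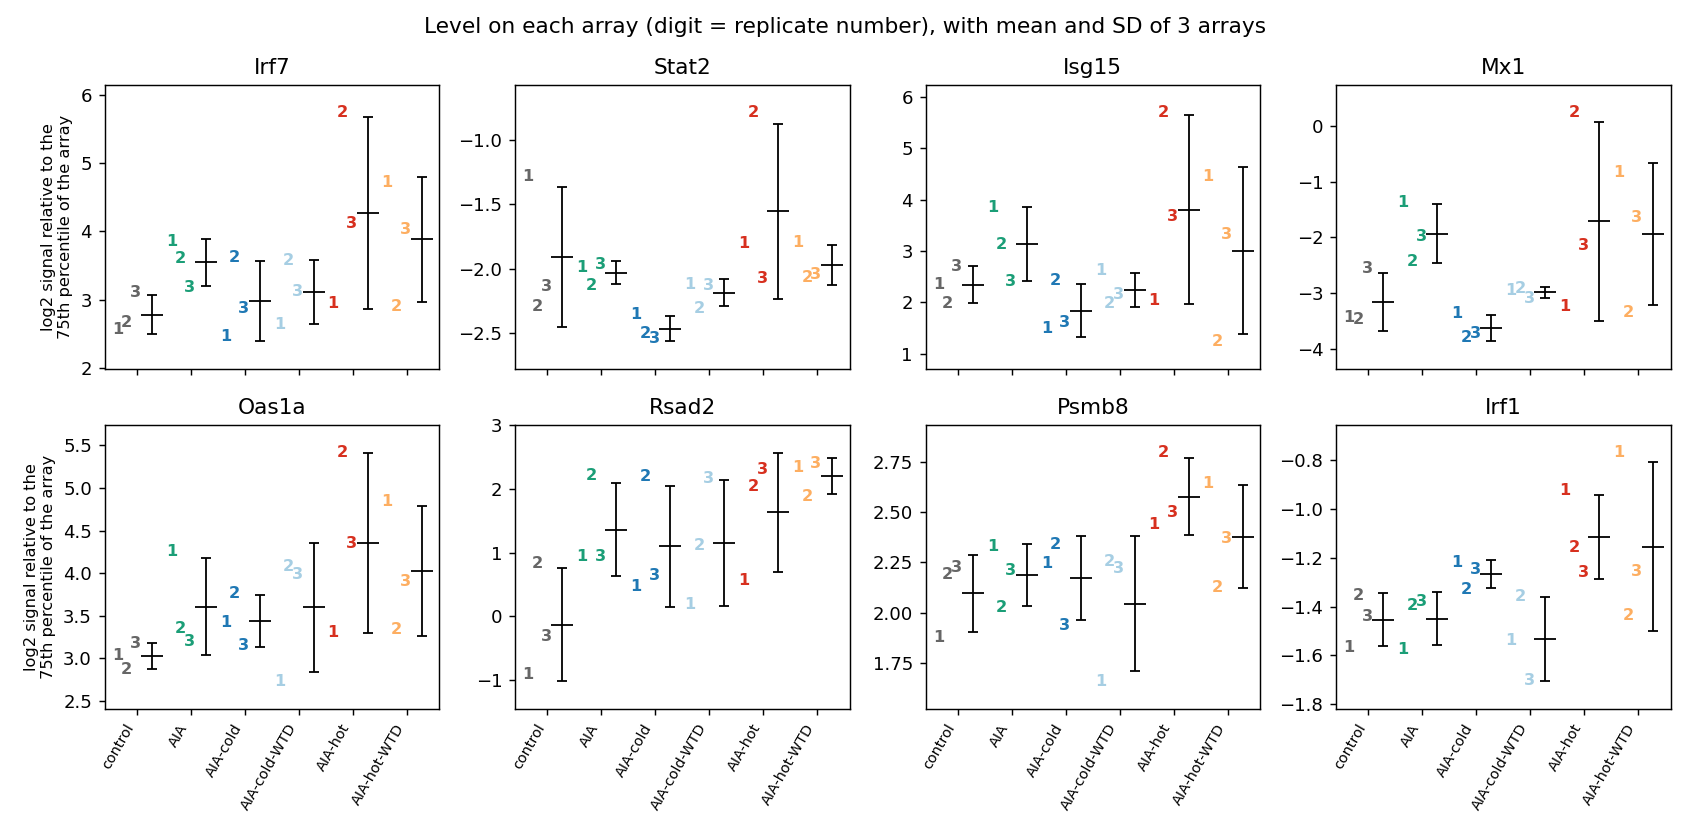
Levels of 8 members (log2 signal relative to the array's 75th percentile, vertical axes) in 6 groups. Digits are replicate numbers and bars are the mean and SD of 3 arrays. In AIA-hot replicate 2 is on top for Irf7, Stat2, Isg15, Mx1, Oas1a and Psmb8 but not for Rsad2 or Irf1.

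The Isg15 pathway followed the effectors. Isg15, the ubiquitin-like modifier itself, was at 2.35, 1.98 and 2.70 in control, 3.85, 3.12 and 2.42 in AIA, 1.49, 2.43 and 1.60 in AIA-cold and 2.62, 1.98 and 2.15 in AIA-cold-WTD. It was at 2.03, 5.70 and 3.68 in AIA-hot and 4.46, 1.24 and 3.33 in AIA-hot-WTD. AIA-hot replicate 1 lay among the controls and AIA-hot-WTD replicate 2 below them, while the other arrays of both groups were above all controls. Usp18, which strips Isg15 from proteins and restrains the receptor, was at -1.07, -1.24 and -0.79 in control, -0.28, -0.72 and -1.49 in AIA, -1.64, -1.34 and -1.54 in AIA-cold and -0.60, -1.48 and -1.26 in AIA-cold-WTD. Usp18 levels were -1.42, 1.39 and -0.44 in AIA-hot and 0.30, -1.50 and -0.25 in AIA-hot-WTD. Each AIA-cold array lay below all controls, and the AIA-hot arrays lay on both sides of them. Trim25, the ubiquitin ligase that switches on RIG-I, was at 2.75, 3.15 and 3.19 in control, 3.55, 3.38 and 3.13 in AIA, 3.51, 3.44 and 3.31 in AIA-cold and 2.90, 3.51 and 3.40 in AIA-cold-WTD. It was at 2.95, 3.94 and 3.65 in AIA-hot and 3.83, 2.90 and 3.19 in AIA-hot-WTD. Here the AIA-cold arrays were all above the controls, and the AIA-hot arrays overlapped every other group. Ube2l6, the enzyme that conjugates Isg15, and Herc6, a ligase for Isg15 in rodents, were highest on AIA-hot replicate 2, at 3.30 and 1.01.

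Antigen processing genes had the smallest differences between AIA-hot and control of the 6 roles by median. Psmb8, a subunit of the immunoproteasome, was at 1.88, 2.19 and 2.22 in control, 2.33, 2.02 and 2.21 in AIA, 2.24, 2.34 and 1.93 in AIA-cold and 1.66, 2.26 and 2.22 in AIA-cold-WTD. It was at 2.44, 2.80 and 2.50 in AIA-hot and 2.64, 2.13 and 2.37 in AIA-hot-WTD. All AIA-hot arrays were above every control, AIA and AIA-cold array, by small margins. Tap1, a chain of the transporter that carries peptides into the endoplasmic reticulum, was at 0.093, -1.14 and -0.50 in control, -0.81, -0.89 and -0.87 in AIA, -0.68, -0.90 and -0.88 in AIA-cold and -0.52, -1.06 and -0.69 in AIA-cold-WTD. Tap1 was at -0.26, 0.45 and -0.75 in AIA-hot and -0.23, -0.20 and -0.26 in AIA-hot-WTD. Control replicate 1 was the second highest array for Tap1, and the AIA-hot arrays overlapped the controls. The other chain, Tap2, was at 1.48 to 1.69 in control, 1.85 to 2.00 in AIA-hot and 1.02 on AIA-hot-WTD replicate 3, its lowest array. The 6 remaining members were highest on AIA-hot replicate 2. Of these, the secreted glycoprotein gene Lgals3bp was at 6.28 there against 3.73 to 4.21 in control, and Ifi44 at 4.42 against 1.80 to 2.38. Ifi35 was at 0.66, 0.48 and 0.67 in control, 0.78, 0.64 and 0.36 in AIA, 0.32, 0.50 and 0.36 in AIA-cold and 0.089, 0.30 and 0.40 in AIA-cold-WTD. It was at 0.26, 1.38 and 0.65 in AIA-hot and 0.79, 0.42 and 0.66 in AIA-hot-WTD. Only AIA-hot replicate 2 stood clear of the other arrays.

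Plain AIA was set against control to ask what adjuvant arthritis alone does. Members were higher by a median of 0.23 (log2), where the median gene differed by -0.03, and 29 of 33 were above 0, as were 46.5% of all genes. By limma with Benjamini-Hochberg adjustment over all genes 0 of 33 members passed an adjusted p of 0.05 (0% of all genes), and 1, Rsad2, had an unadjusted p under 0.05 (2.48% of all genes were higher at that level and 3.8% lower). The arrays did not overlap, with AIA higher, for 8 members, against 5.32% of all genes, and for 0 with AIA lower (5.34%). Those 8 were Mx1, Ifit2, Ifit3, Irf7, Oas1a, Rsad2, Tap2 and Lgals3bp. Antiviral effectors were higher in 10 of 10 with a median of 0.60, and antigen processing genes in 3 of 4 with a median of 0.048. The largest differences were 1.49 ± 0.63 (SE) for Rsad2 and 1.22 ± 0.72 for Mx1, with adjusted p = 0.756 for both. The smallest were -0.34 ± 0.29 for Tap1 and -0.18 ± 0.45 for Dhx58, with adjusted p = 0.762 and 0.898. Without AIA replicate 1 the median was 0.11, and without control replicate 1 it was 0.18. With only the AIA and control arrays in the limma fit, 5 members were higher at an unadjusted p under 0.05 in place of 1. With normexp background correction Mx1 was at 0.049 in place of 1.22, and with array weights Tap1 was at -0.041. On the slide that held AIA replicate 1 and the 3 controls the median was 0.52.

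In the cold model the median over members was near that of all genes. No slide held both AIA-cold and control arrays, so slide and model cannot be told apart here. The median difference was -0.039, where the median gene differed by -0.037, and 16 of 33 members were above 0, as were 46.1% of all genes. No member passed limma's test at the adjusted p (0 of 33, against 0.534% of all genes), and at an unadjusted p under 0.05 there were also 0, against 7.46% of all genes higher and 11.2% lower. These p-values use a spread shared with AIA-hot, where the median SD of a member was 0.93, against 0.18 in AIA-cold. The count of 0 is therefore not a measure of how little members differed. With normexp background correction 1 member was higher and 3 were lower at that level. Groups did not overlap for 2 members that were higher, Irf1 and Trim25 (10.8% of all genes), and 4 that were lower, Dhx58, Stat2, Usp18 and Ifih1 (14.1%). Rsad2 differed by 1.23 ± 0.63 and Zbp1 by 0.43 ± 0.63 at the upper end, and Dhx58 by -0.95 ± 0.45 and Stat2 by -0.56 ± 0.29 at the lower, with adjusted p from 0.279 to 0.742 by limma. The median was -0.041 without control replicate 1, and leaving out 1 array at a time took it from -0.12 to 0.047, so it had no stable sign. Zbp1 was at -0.40 with normexp background correction, and at 0.99 with quantile normalization, Rsad2 was at 0.54 as the mean of its probes, and Stat2 was at -0.24 with array weights.

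The hot model had the largest median against control, and leaving out AIA-hot replicate 2 lowered it more than leaving out any other array. No slide held both AIA-hot and control arrays. Members were higher than control by a median of 0.80, where the median gene differed by -0.054, and 33 of 33 were above 0, as were 43.3% of all genes. Again 0 of 33 passed limma's adjusted p (0.0551% of all genes), while 12 had an unadjusted p under 0.05 and were higher (4.62% of all genes) and 0 were lower (7.49%). The groups did not overlap for 12 members, all higher (5.02% of all genes were, and 8.06% were lower): Irf1, Irf9, Oas1a, Herc6, Parp9, Psmb8, Psmb9, Tap2, Gbp2, Zbp1, Ube2l6 and Lgals3bp. Antiviral effectors had a median of 1.11, the Isg15 pathway 0.88, sensors 0.61, transcription factors 0.58 and antigen processing genes 0.35. Mx2 differed by 1.86 ± 0.96, Zbp1 by 1.84 ± 0.63, Rsad2 by 1.77 ± 0.63 and Irf7 by 1.49 ± 0.58, with adjusted p = 0.455, 0.265, 0.288 and 0.337 by limma. The smallest differences were 0.023 ± 0.22 for Ifih1 and 0.16 ± 0.22 for Ifi35, with adjusted p = 0.976 and 0.791. Without AIA-hot replicate 2 the median was 0.33, 28 of 33 members were above 0, and 1 (Rsad2) had an unadjusted p under 0.05. Zbp1 was then at 1.11 ± 0.57, Mx2 at 0.75 ± 0.88, Isg15 at 0.51 ± 0.74, and Irf1, at 0.36 ± 0.19, hardly moved. Without AIA-hot replicate 1 the median was 1.03 with 24 members at an unadjusted p under 0.05, and without control replicate 1 it was 0.71 with 5. With only the AIA-hot and control arrays in the limma fit, 5 members were higher at that level in place of 12. The sizes for Zbp1 and Mx2 depended on the processing: with normexp background correction Zbp1 was at 0.34 and Mx2 at 0.57, and with slide as a fixed block at 3.36 and 3.42.

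**Figure D4:**
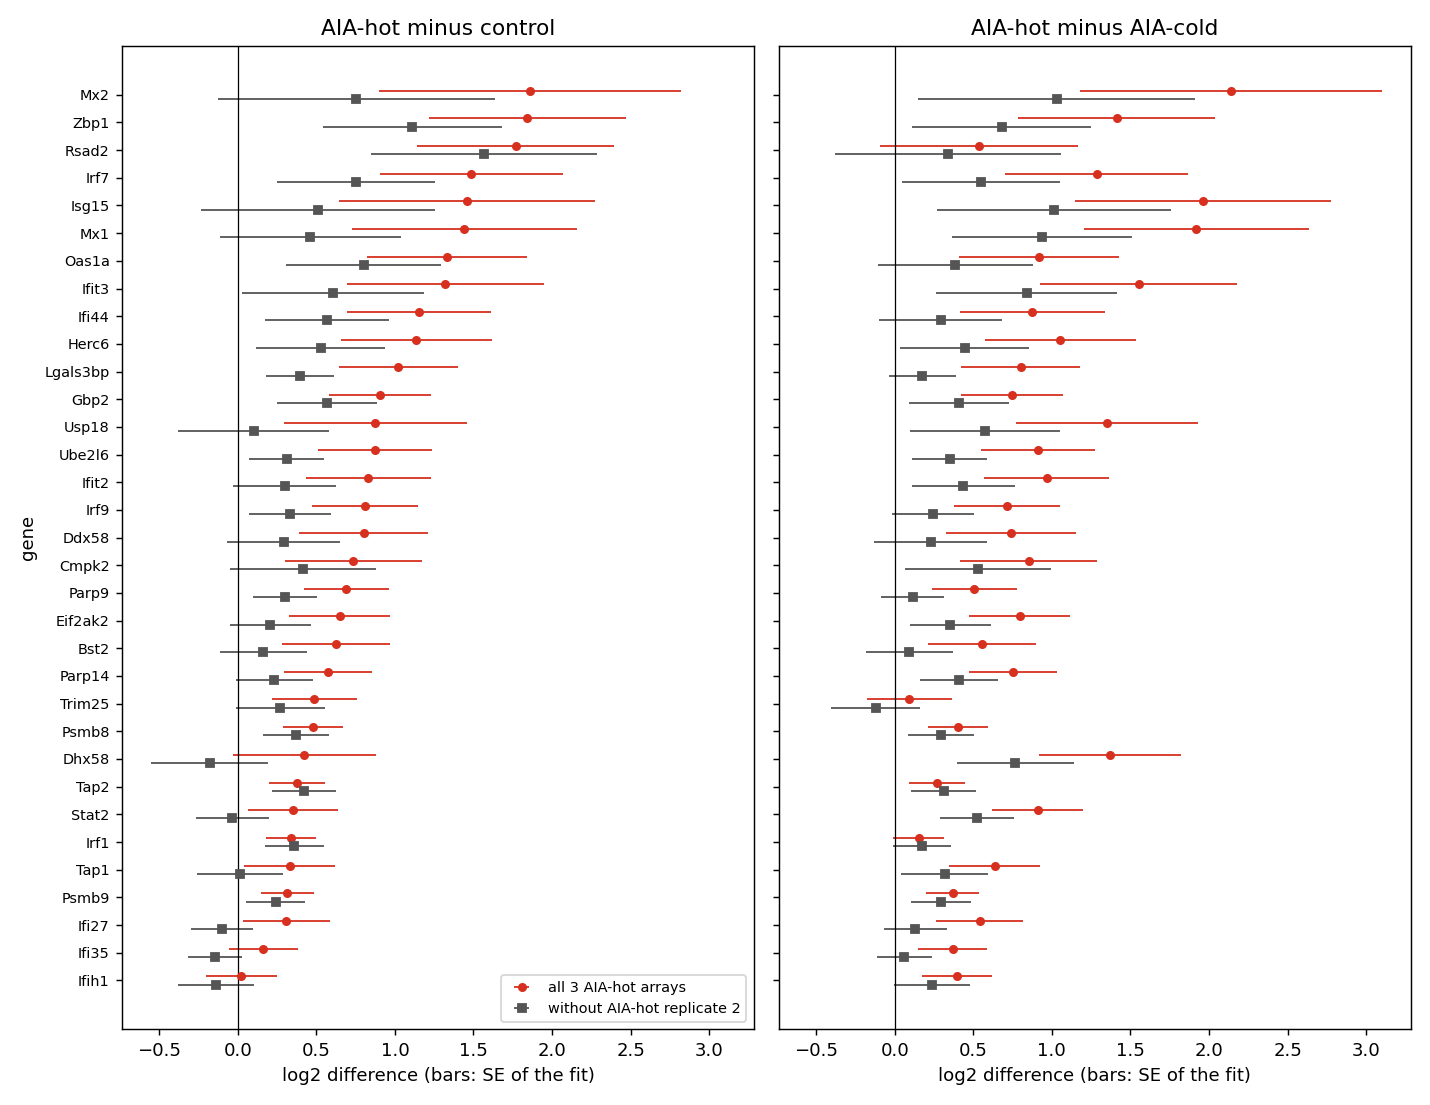
Log2 differences (horizontal axes) of AIA-hot from control (left) and from AIA-cold (right) for 33 members, with the SE of the fit. Circles use all 3 AIA-hot arrays and squares leave out replicate 2. On the left Mx2 moves from 1.86 to 0.75 and Isg15 from 1.46 to 0.51, while Irf1, Tap2 and Psmb8 move little.

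Against plain AIA, the hot model's members were higher by a median of 0.51 and 33 of 33 were above 0 (43.7% of all genes). None of the 33 passed limma's adjusted p (0, against 0% of all genes), and 1, Tap1, had an unadjusted p under 0.05 (2.58% of all genes were higher at that level). The groups did not overlap for 5 members, all higher (4.07% of all genes were, and 5.84% were lower): Irf1, Parp14, Psmb8, Psmb9 and Tap1. Zbp1 differed by 0.92 ± 0.63 and Mx2 by 0.88 ± 0.96, with adjusted p = 0.878 and 0.907, and Cmpk2 by 0.11 ± 0.43 and Ifih1 by 0.0077 ± 0.22, with adjusted p = 0.982 and 0.997. Without AIA-hot replicate 2 the median was 0.024 with 18 of 33 members above 0, and Mx2 was -0.23 ± 0.88. With normexp background correction Zbp1 was at 0.38 and Mx2 at 0.57, and with slide as a fixed block at 1.56 and 1.38. Within the slide that held AIA-hot replicates 1 and 2 and AIA replicates 2 and 3, the median was 0.76. The cold model was lower than plain AIA by a median that the fit gave as -0.25, with 4 of 33 members above 0 (48.3% of all genes). It was -0.13 with 9 above 0 without AIA replicate 1, and -0.40 with 2 above 0 without AIA replicate 3. Here too 0 of 33 passed limma's adjusted p (0% of all genes), and 1, Mx1, was lower at an unadjusted p under 0.05 (5.26% of all genes) and 0 higher (3.78%). The groups did not overlap for 7 lower members (13.5% of all genes), which were Mx1, Ifit2, Ifit3, Stat2, Eif2ak2, Parp14 and Tap2, and for 1 higher, Irf1 (10.7% of all genes). The largest differences were -1.70 ± 0.72 for Mx1 and -1.29 ± 0.82 for Isg15, with adjusted p = 0.496 and 0.69, and at the other end 0.18 ± 0.16 for Irf1 and 0.07 ± 0.27 for Trim25, with adjusted p = 0.812 and 0.979. With normexp background correction Mx1 was at -0.74. With only the AIA-cold and AIA arrays in the limma fit, 8 members were lower at an unadjusted p under 0.05 in place of 1. No slide held both AIA-cold and AIA arrays, so slide and model cannot be told apart there.

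The hot and cold models were also set against each other. Members were higher in AIA-hot by a median of 0.80, where the median gene differed by -0.0074, and 33 of 33 were above 0 (48.8% of all genes). By limma 0 of 33 passed the adjusted p (0.00847% of all genes), and 17 had an unadjusted p under 0.05 with AIA-hot higher (2.30% of all genes). The groups did not overlap for 12 members, all higher in AIA-hot (6.78% of all genes were, and 8.27% were lower): Mx1, Ifit2, Ifit3, Irf9, Stat2, Dhx58, Eif2ak2, Parp14, Psmb8, Psmb9, Tap2 and Ube2l6. Mx2 differed by 2.14 ± 0.96, Isg15 by 1.96 ± 0.82 and Mx1 by 1.92 ± 0.72, with adjusted p = 0.897, 0.84 and 0.782. Stat2 had the smallest p, at 0.91 ± 0.29 and an adjusted p = 0.644. A fit with array weights, which gives arrays that vary more a smaller weight, called Stat2 (0.90 ± 0.20, adjusted p = 0.0348) and 776 genes in all, where the equal-weight fit called 2. In the other 14 alternatives the adjusted p of Stat2 ran from 0.196 to 1. Irf1 and Trim25 differed least, by 0.15 ± 0.16 and 0.094 ± 0.27, with adjusted p = 0.992 and 0.998. Without AIA-hot replicate 2 the median was 0.35 with 32 of 33 above 0 and 1 member, Stat2, at an unadjusted p under 0.05. Without AIA-hot replicate 1 it was 1.12 with 25. With only the AIA-hot and AIA-cold arrays in the limma fit, 6 members were higher at that level in place of 17. With normexp background correction Mx2 was at 1.22. The comparisons with AIA-hot share its 3 arrays, so their values are not independent of each other. No slide held both AIA-hot and AIA-cold arrays, so slide and model cannot be told apart in this comparison.

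**Figure D5:**
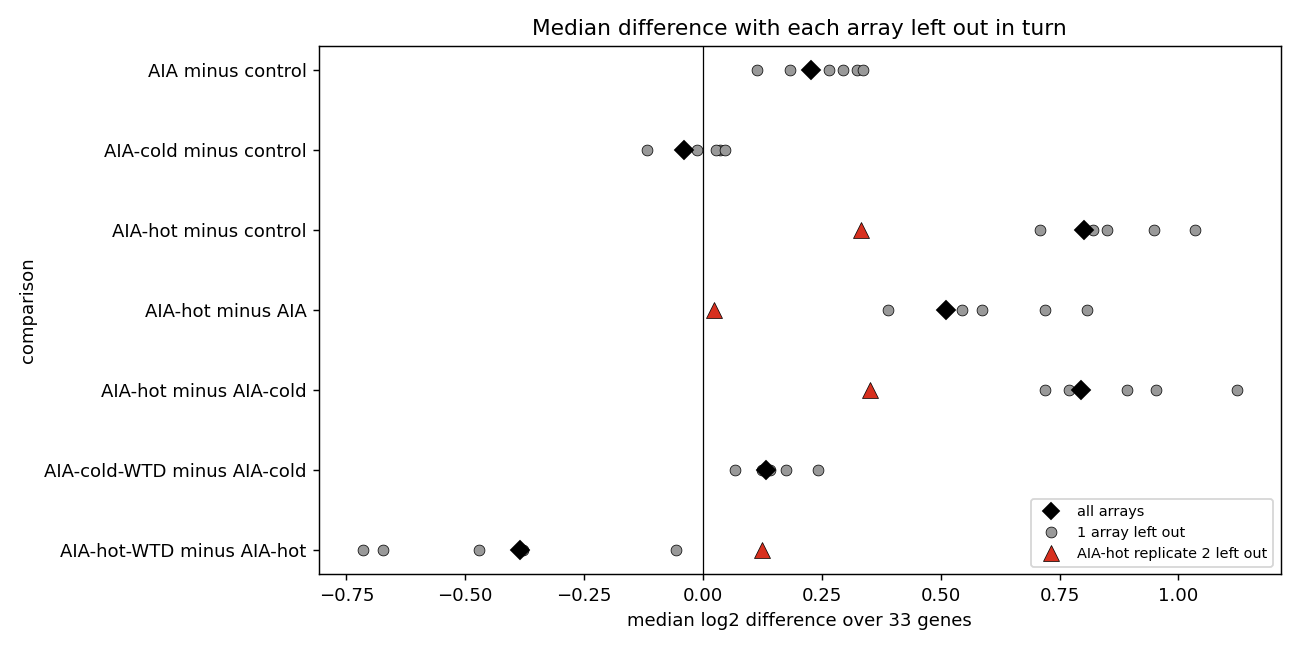
Median log2 difference over 33 members (horizontal axis) in 7 comparisons. Diamonds use all arrays, circles leave out 1 array, and triangles leave out AIA-hot replicate 2. Leaving out that array moves the median of AIA-hot minus control from 0.80 to 0.33, of AIA-hot minus AIA from 0.51 to 0.024, and of AIA-hot-WTD minus AIA-hot from -0.39 to 0.12.

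WTD treatment was compared with the untreated model in each state. In the cold model members were higher with WTD by a median of 0.13, and 24 of 33 were above 0 (51.0% of all genes). The fit called 0 of 33 at the adjusted p (0.00847% of all genes), and 0 had an unadjusted p under 0.05 (2.64% of all genes higher, 3.44% lower). The groups did not overlap for 6 higher members, Mx1, Mx2, Irf9, Stat2, Dhx58 and Eif2ak2 (7.68% of all genes), and for 1 lower, Irf1 (6.71%). Mx2 and Mx1 differed by 0.87 ± 0.96 and 0.64 ± 0.72, and Bst2 and Irf1 by -0.35 ± 0.34 and -0.27 ± 0.16, with adjusted p from 0.939 to 1.00 by limma. With only the AIA-cold-WTD and AIA-cold arrays in the limma fit, 4 members were higher at an unadjusted p under 0.05 in place of 0. Within the slide that held the 3 AIA-cold arrays and AIA-cold-WTD replicate 1 the median was 0.21. It was 0.067 without AIA-cold replicate 1 and 0.24 without AIA-cold replicate 2, and with normexp background correction it was 0.078, with Mx2 at 0.27 and Mx1 at 0.19. In the hot model members were lower with WTD, with a median difference of -0.39 and 2 of 33 above 0, Rsad2 and Cmpk2 (47.3% of all genes). The fit called 0 of 33 at the adjusted p (0% of all genes), and 1, Tap2, was lower at an unadjusted p under 0.05 (1.10% of all genes) and 0 were higher (1.19%). The groups overlapped for every member, where 4.45% of all genes were lower without overlap. Isg15 differed by -0.79 ± 0.82, Mx2 by -0.58 ± 0.96, Cmpk2 by 0.16 ± 0.43 and Rsad2 by 0.56 ± 0.63, with adjusted p = 0.999 for all. Without AIA-hot replicate 2 the median was 0.12 with 25 of 33 above 0. Within the slide that held AIA-hot replicate 3 and the 3 AIA-hot-WTD arrays, and so without replicate 2, it was -0.12 with 11 of 33 above 0. Without AIA-hot replicate 1 it was -0.67, without AIA-hot-WTD replicate 1 it was -0.72, and without AIA-hot-WTD replicate 2 it was -0.056. With array weights it was -0.019.

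An interaction term asked whether WTD acted differently in the hot and the cold model. Its median over members was -0.51, with 2 of 33 above 0 (48.3% of all genes), 0 of 33 at the adjusted p (0% of all genes) and 0 at an unadjusted p under 0.05 (2.16% of all genes higher, 2.02% lower). Mx2 gave -1.45 ± 1.36 and Isg15 -1.20 ± 1.15, and Rsad2 0.51 ± 0.89 and Irf1 0.23 ± 0.23 at the other end, all with adjusted p = 0.988 to 0.989 by limma. Without AIA-hot replicate 2 the median was -0.0094 with 16 members above 0, without AIA-hot-WTD replicate 2 it was -0.18, without AIA-hot-WTD replicate 1 it was -0.82, and without AIA-hot replicate 1 it was -0.86. With array weights it was -0.12, with Mx2 at -0.31 and Isg15 at -0.064. The WTD arrays with the letter G, AIA-hot-WTD replicate 2 and AIA-cold-WTD replicate 1, had member means of 0.32 and 0.52. Those with Z, AIA-cold-WTD replicates 2 and 3 and AIA-hot-WTD replicate 3, had 0.55, 0.60 and 0.99. The array with D, AIA-hot-WTD replicate 1, had 1.56. WTD groups follow the group label, and whether arrays with different letters had the same treatment is not given. What the letters stand for was not tested and cannot be told apart from the arrays themselves.

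Upstream, the interferon genes themselves were hardly measured. Of 10 ligand and receptor genes on the companion list only the receptor chain Ifnar1 passed the filter, at -0.11, -0.32 and -0.36 in control and -0.34, -0.47 and -0.50 in AIA-hot, a difference of -0.17 ± 0.13 with adjusted p = 0.599 by limma. Ifna1, Ifna11 and the other receptor chain, Ifnar2, had no probe under these names and so were not measured. The single probes of Ifnb1, Ifna5, Ifne and, for type II interferon, Ifng were well above background on 0 of 18 arrays. Of 14 tested genes of sensing and signalling 3 were highest on AIA-hot replicate 2, and of 7 negative regulators 4 were.

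Other interferon-stimulated genes outside the list showed the array too. They were also chosen with earlier results of these data known, so they are no separate test. Of 27 tested 19 were highest on AIA-hot replicate 2, against 5.74% of all genes. So were 4 of 9 tested genes listed for type II interferon, which are its receptor chains Ifngr1 and Ifngr2 and targets. Between AIA-hot and control 7 of the 27 had an unadjusted p under 0.05 and were higher, as were 2 of the 9, against 4.62% of all genes, with 0 of either at the adjusted p. These counts were 1, Slfn2, and 0 without AIA-hot replicate 2. The largest differences over all companion lists were 1.88 ± 0.97 for Cxcl10, a chemokine that draws T cells, 1.43 ± 0.57 for Rtp4 and 1.20 ± 0.52 for Oasl2, with adjusted p = 0.454, 0.344 and 0.38 by limma. The smallest were -0.28 ± 0.13 for Ptpn11, -0.25 ± 0.14 for Ifitm2 and -0.18 ± 0.15 for Jak1, with adjusted p = 0.419, 0.481 and 0.662. Cxcl10 was at 1.55 ± 1.10, Rtp4 at 0.75 ± 0.52 and Oasl2 at 0.55 ± 0.45 without AIA-hot replicate 2. Cxcl10 was highest on AIA replicate 2 and not on AIA-hot replicate 2. Against AIA-cold, 4 of the 9 genes listed for type II interferon were higher at an unadjusted p under 0.05 by limma, against 2.30% of all genes. They were Gbp4, Gbp5, Igtp and Irgm, with 0 at the adjusted p. This held for 1 without AIA-hot replicate 2, Igtp, at 0.82 ± 0.28, with Gbp4 at 0.66 ± 0.49.

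Cell markers on AIA-hot replicate 2 were at the edges of the range for some types. Its macrophage mean was 3.99 (2.18 to 3.97 on the other arrays), its synovial fibroblast mean 3.57 (2.44 to 3.67) and its adipocyte mean 3.66 (2.44 to 5.72). The T and NK cell mean was -2.12 (-3.38 to -1.49). Of the markers listed for plasmacytoid dendritic cells, Siglech and Spib were not tested. The mean of the others, Tcf4, Il3ra and Runx2, was 1.03 (0.55 to 1.16), and how specific they are to these cells was not tested. Of the B cell markers 1 of 7 was tested. The part these cell types have in the result was not tested. The array's 75th percentile of signal, 311 units, and its share of probes well above background, 57.7%, lay within those of the other arrays. For the 8 members with over 1 kept probe, the probes gave the same highest array in 7, with AIA-hot differing from control by 0.61 and 0.63 for the Bst2 probes, and by 0.36 and 1.77 for those of Rsad2. Mx, Oas, Ifit and Gbp genes have close relatives, and how specific their probes are was not tested.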

How the data were processed

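Total RNA of knee synovium was hybridised to 1-colour (Cy3) Agilent rat arrays, 18 in all. The deposited scanner files hold each spot's intensity, background-subtracted and processed by the authors. The submitters' processing notes name version 10.7 of Agilent Feature Extraction. The authors also deposited a table of log2 values, whose exact normalization is not given in the sources used here; its columns correlate at 0.989 to 1.00 with the log2 processed intensity, and their medians lie between 5.40 and 5.42.

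From the scanner files, control spots and outlier spots were left out, spots of 1 probe were averaged as log2 values, and each array's 75th percentile was subtracted. Of 41012 gene probes 28271 were kept, each bright enough on the scanner's own test in all 3 arrays of 1 group or more, and the brightest kept probe stood for a gene. Of the 23606 resulting genes 12004 carry a gene symbol. Symbols came from the array's own names and from RefSeq tables by accession or synonym. All 18 arrays entered 1 limma fit (limma 3.58.1, R 4.3.3, 12 residual degrees of freedom), with Benjamini-Hochberg adjustment over all genes in each of the comparisons and a threshold of 0.05. The fit was tested on simulated data in which each gene had 1 spread in all groups and genes varied independently. That setting does not cover members that rise together on 1 array. SE values come from the limma fit of the 18 arrays, which shares 1 spread per gene over the 6 groups. The median SD of a member was 0.93 in AIA-hot and 0.18 in AIA-cold. For some comparisons, counts at an unadjusted p are therefore also given from a fit of only the groups compared.

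The labels call arrays biological replicates. Replicate numbers follow the order of deposit and pair nothing. Members, roles and lists were chosen with earlier results of these data known. Values on every array are given for a set of members picked by name and for the 2 largest and 2 smallest differences in each comparison; other members are given by range and count. The other treatment groups of the protocol were not analysed here. Alternatives were quantile normalization, normexp background correction, the deposited table, other probe filters, the mean over probes, only the groups compared, array weights, slide as a block, and leaving out each array. One gene of the companion lists is not reported here.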

Additional observations from a re-analysis of the deposited data

Results flagged for a closer look

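Of the probes left out by the filter on dim probes, 4 of this pathway were well above background on some arrays and on 0 of the 3 controls. Oasl, a relative of the oligoadenylate synthases, was so on 4 arrays: AIA-hot replicate 2, AIA-hot-WTD replicates 1 and 3, and AIA-cold-WTD replicate 1. Its highest level, -2.79, was on AIA-hot replicate 2. The interferon alpha gene Ifna4 was so on 5 arrays, AIA-cold replicates 1 and 2, AIA-cold-WTD replicates 1 and 3, and AIA-hot-WTD replicate 1. Another interferon alpha gene, Ifna2, was so on 1 array, AIA-cold-WTD replicate 1, and Ifnk, interferon kappa, on 2, AIA-cold-WTD replicates 2 and 3. None of these 3 ligand probes was well above background on AIA-hot replicate 2. Such patterns are common among dim probes: of 12741 probes left out, 41.5% were well above background on at least 1 array and on 0 controls, and 5.55% on 4 or more arrays and 0 controls.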

How the results depend on the processing

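With 3 arrays a group, the number of arrays limits the precision, and Mx1, Mx2, Zbp1 and Dhx58 were near background on some arrays. Across the settings tried, 39 alternative values of 15 named differences changed sign. The number of members called changed only between AIA-hot and AIA-cold, where array weights called Stat2 (1 member in place of 0). Medians over members moved more. Without AIA-hot replicate 2, that of AIA-hot-WTD minus AIA-hot went from -0.39 to 0.12, and that of AIA-hot minus AIA from 0.51 to 0.024. The median of AIA-cold minus control ran from -0.12 without AIA-cold replicate 2 to 0.072 with the deposited table. With slide as a fixed block, which cannot be fitted for AIA-cold against control, AIA or AIA-hot, the median of AIA minus control was 0.52 in place of 0.23. The only AIA array on the slide of the 3 controls was AIA replicate 1, so this value rests on that array alone. Its mean over members, 1.05, was the highest of the AIA arrays.

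With slide as a fixed block, Dhx58 in AIA minus control was 0.32, Ifih1 was -0.046 in AIA-hot minus control and -0.090 in AIA-hot minus AIA, Cmpk2 was -0.079 in AIA-hot minus AIA and -0.31 in AIA-hot-WTD minus AIA-hot, and Rsad2 was -0.10 in the latter. With slide as a random block Ifih1 in AIA-hot minus AIA was -0.0030. With normexp, Zbp1 in AIA-cold minus control was -0.40, Irf1 in AIA-cold minus AIA -0.0091, and Ifih1 -0.14 in AIA-hot minus control and -0.054 in AIA-hot minus AIA. With array weights, Ifih1 was -0.096 in AIA-hot minus control and -0.18 in AIA-hot minus AIA, Cmpk2 -0.27 in the latter, Trim25 -0.11 in AIA-hot minus AIA-cold, and in AIA-hot-WTD minus AIA-hot Isg15 was 0.17 and Mx2 0.55.

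Leaving out 1 array at a time gave these ranges. Dhx58 in AIA minus control ran from -0.44 to 0.14. Trim25 ran from -0.041 to 0.17 in AIA-cold minus AIA and from -0.12 to 0.38 in AIA-hot minus AIA-cold. In AIA-hot minus control Ifih1 ran from -0.14 to 0.29 and Ifi35 from -0.15 to 0.41. In AIA-hot minus AIA Ifih1 ran from -0.15 to 0.28, Cmpk2 from -0.21 to 0.66 and Mx2 from -0.23 to 2.02. In AIA-hot-WTD minus AIA-hot Isg15 ran from -1.68 to 0.16, Mx2 from -1.72 to 0.53 and Cmpk2 from -0.40 to 0.48. Rsad2 in the difference between the WTD effects ran from -0.035 to 1.02. No paired analysis was possible because the labels give every array the same replicate number.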
